A study of Mus musculus with 6 samples.

Results

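The 40 genes described here make up the core of the NOTCH pathway: 4 receptors, 5 ligands, 4 sugar transferases, 6 target genes, 5 Deltex genes, 6 genes of the nuclear complex, 7 genes of the cleaving proteases and 3 genes of receptor and ligand traffic. They were listed by symbol and were found on the arrays through the RefSeq accession of each probe. All 40 had a probe, 61 probes in all, among the 22911 genes and 56605 probes of the arrays that were not controls.

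The samples were 3 preparations of vascular endothelial cells (VECs; replicates 2, 3 and 4) and 3 of lymphatic endothelial cells (LECs; replicates 6, 7 and 8) from the small intestine of female mice. VECs line blood vessels and were sorted as CD45- CD31+ CD90- cells, whereas LECs line the lymphatic vessels of the gut and were sorted as CD45- CD31+ CD90+ cells. No treatment or engineered allele is given for either group, and the strain and age of the mice used for the arrays are not given in the sources used here. The title and source of every sample name its cell type, but the free-text description given with the LEC samples speaks of VECs, so groups were taken from the titles. RNA of up to 10000 sorted cells per sample was hybridised to a 1-colour Agilent array, and no source states whether a group stands for 3 mice or for 1 pool split 3 ways, so p-values measure only the spread between these samples.

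Each array had between 30929 and 35510 probes well above background, and no spot was saturated. Values are given as log2 of the processed intensity of a probe minus the 75th percentile of its own array, so that 0 is the level of a fairly bright probe and 1 unit is a doubling; they are not comparable between probes. Differences are LEC minus VEC with the standard error (SE) of the limma fit, 3 samples against 3, and a gene was called higher or lower in LECs where its Benjamini-Hochberg adjusted p over all 33776 tested probes was below 0.05. Markers went with the labels: the summed level of 8 lymphatic markers, with the 75th percentile set to 1, was 4.30 to 4.71 in VECs and 1309 to 1348 in LECs, and that of 8 blood vascular markers was 1684 to 1822 in VECs and 40.4 to 53.8 in LECs. Pan-endothelial markers were lower in LECs for 7 of 8 genes, with sums of 491 to 552 in VECs and 263 to 291 in LECs. Markers of other cells also moved with the comparison: from VECs to LECs the sums went from 0.909 to 1.56 up to 2.19 to 2.97 for fibroblasts and from 1.51 to 1.86 up to 3.62 to 4.50 for glia and neurons, and from 14.3 to 35.3 down to 0.378 to 2.01 for erythroid cells. Of the 8 glia and neuron markers 5 were higher in LECs, 1 was lower and 2 did not pass. Myeloid markers summed to 79.6 to 85.2 in VECs and 70.5 to 75.8 in LECs, with 5 genes higher in LECs and 3 lower. Most of this sum came from 1 Itgam probe, at log2 levels of 6.21, 6.32 and 6.30 in VECs and 6.01, 6.06 and 6.11 in LECs. The other Itgam probe was dim (mean -3.80 in VECs and -4.15 in LECs), and Ptprc was not tested. Epithelial sums overlapped, at 1.91 to 4.19 in VECs and 3.39 to 4.31 in LECs. The part of these cells in the members' differences was not tested. In sorted bulk samples, fewer cells of a type and less RNA per cell cannot be told apart.

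NOTCH receptors are single-pass proteins of the cell surface that are bound by Delta-like and Jagged ligands on a neighbouring cell. Binding exposes the receptor to ADAM proteases and then to gamma-secretase, and the freed intracellular domain enters the nucleus, where it joins RBPJ and a Mastermind protein to switch on genes such as those of the HES and HEY repressors. In blood vessels this pathway is known for arterial specification and for the choice between tip and stalk cells of a sprout, and lymphatic endothelium arises mainly from veins.

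Of the 39 members that could be tested, 12 were higher and 20 were lower in LECs, and 7 did not pass the test. Dll3 was not tested, since none of the 6 arrays measured it well above background. The 32 called members were 82.1% of those tested, where 66.9% of all 14971 tested genes were called, 34.9% as higher and 32.0% as lower. A called difference of at least 2-fold was found for 18 members (46.2%), 7 higher and 11 lower in LECs, against 25.1% of all genes, 12.0% higher and 13.1% lower. The median difference of the tested members was -0.26 on the log2 scale, that of all tested genes 0.02, and the median absolute difference was 0.73 against 0.46. The cell types did not overlap for 34 of the 39 tested members. The same held for 11229 of all 14971 tested genes, so a lack of overlap was common.

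The arrays lay in both rows of 1 slide, with the 3 VEC samples and LEC 6 in row 1 and LEC 7 and LEC 8 in row 2. With the row as a block, 11 members were called higher and 17 lower (71.8% of those tested, against 54.4% of all genes), and within row 1 alone, where LEC 6 was the only LEC sample and was assumed to vary like the VEC samples, 10 and 17 (69.2% against 50.4%). For the 18 members with a called difference of at least 2-fold, the row 1 fit gave the same log2 differences as the block fit, so it is no separate check. All 18 kept their direction, and their log2 differences moved by at most 0.41, for Hey2.

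The receptors divided between the cell types. Notch2, which is bound by both ligand families, was 32-fold higher in LECs, and Notch4, a receptor found largely in endothelium, was 14.1-fold lower in LECs. Notch1, the receptor best known for arterial and sprouting control, differed by 1.2-fold only, and Notch3, the receptor of mural cells, did not pass the test.

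Notch2 measured -2.75, -3.08 and -2.77 in the VEC samples against 2.17, 2.13 and 2.11 in the LEC samples. The groups lay far apart and each was tight, with a difference of 5.0 ± 0.10 (SE, adjusted p = 7.52e-07), which was 4.01 (16.1-fold) under normexp background correction with an offset of 50. Notch4 measured 6.91, 6.97 and 6.90 in VECs against 2.97, 3.26 and 3.10 in LECs, a difference of -3.82 ± 0.09 (SE, adjusted p = 1.03e-06). A second Notch4 probe gave -0.12, -0.17 and -0.15 in VECs and -4.13, -4.41 and -4.45 in LECs, where it was well above background in 2 of 3 samples, so that it was at least 16.2-fold lower in LECs (adjusted p = 1.05e-06). Both Notch4 probes thus ran the same way, and on neither did the cell types overlap.

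Notch1 measured 1.46, 1.21 and 1.32 in VECs and 1.60, 1.70 and 1.48 in LECs. The LEC values began just above the highest VEC value, and the difference of 0.27 ± 0.10 (SE, adjusted p = 0.0481) passed the threshold narrowly; it was lost under 11 of 22 alternatives, with adjusted p from 0.0116 to 0.178. Notch3 measured 2.19, 1.87 and 2.23 in VECs and 1.71, 1.93 and 1.67 in LECs. These ranges overlapped, and the difference was -0.33 ± 0.13 (SE, 95% confidence interval -0.64 to -0.02, adjusted p = 0.0625); it passed under 5 alternatives, without VEC 3 (-0.44) and without LEC 7 (-0.41) among them. The summed level of 10 pericyte and smooth muscle markers was 39.8 to 48.2 in VECs and 82.7 to 93.3 in LECs, and all 10 were well above background in every sample. Of these markers 2 were higher in LECs (Kcnj8 and Abcc9), 3 were lower and 5 did not pass, and the sum without Kcnj8 was 39.5 to 47.8 in VECs and 29.0 to 38.2 in LECs. Their part in the Notch3 values was not tested.

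**Figure D1:**
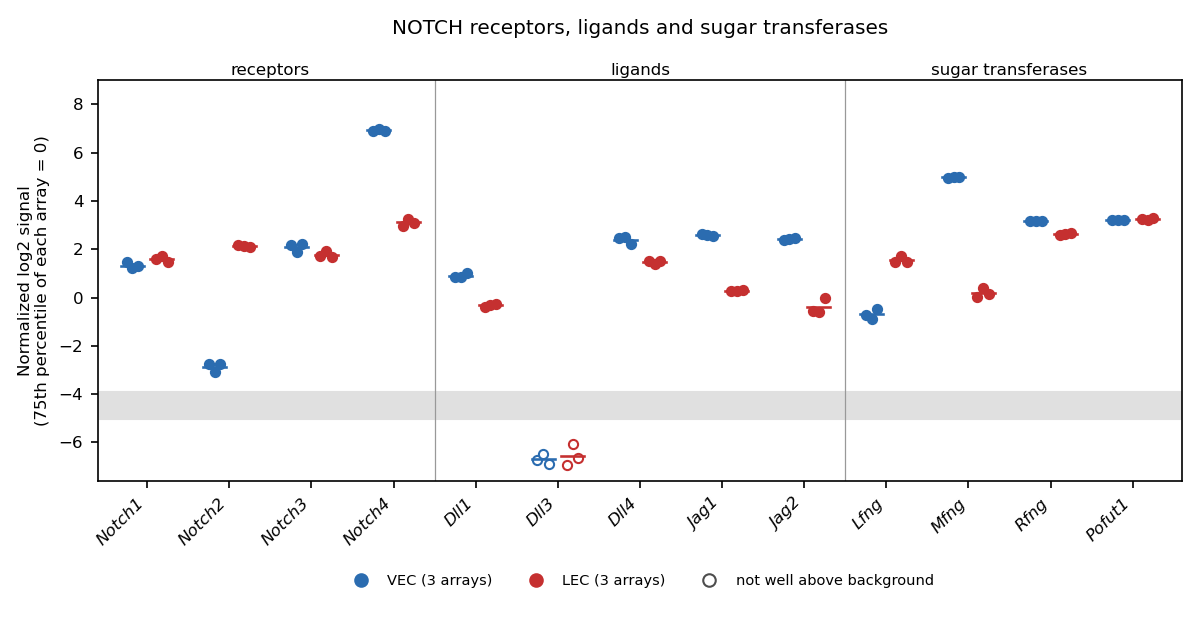
Normalized log2 signal of the receptors, ligands and sugar transferases (vertical axis, 75th percentile of each array at 0) for VEC samples (blue points, 3 arrays) and LEC samples (red points, 3 arrays), with a line at each group mean; open points were not well above background, and the grey band spans the lowest level well above background over the 6 arrays (-5.03 to -3.92). Notch2 and Lfng sit higher in LECs, Notch4, Mfng and the 4 tested ligands sit lower, and Dll3 lies below the band on every array.

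All 4 tested ligands were lower in LECs, by 1.91-fold for Dll4 up to 7.08-fold for Jag2, where 32.0% of all tested genes were called lower. Dll4, the ligand of arteries and of the tip cells of sprouts, measured 2.48, 2.51 and 2.22 in VECs and 1.52, 1.38 and 1.52 in LECs, a difference of -0.93 ± 0.10 (SE, adjusted p = 4.03e-04). Dll1, the other Delta-like ligand that signals in arteries, measured 0.87, 0.84 and 1.0 in VECs and -0.38, -0.30 and -0.28 in LECs, a difference of -1.22 ± 0.07 (SE, adjusted p = 2.90e-05). Neither Delta-like ligand had an LEC value as high as its lowest VEC value.

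The Jagged ligands differed by more. Jag1, which signals from endothelium to mural cells among other roles, measured 2.64, 2.59 and 2.55 in VECs and 0.26, 0.26 and 0.31 in LECs, so it was 4.99-fold lower, with a difference of -2.32 ± 0.06 (SE, adjusted p = 1.36e-06). Jag2 measured 2.40, 2.41 and 2.47 in VECs and -0.55, -0.60 and -0.03 in LECs, a difference of -2.82 ± 0.16 (SE, adjusted p = 2.63e-05). Among the LEC samples LEC 8 was the highest for Jag2, yet it stayed more than 2 units below every VEC sample. Dll3, which is known as a ligand that does not activate receptors on other cells, gave values between -6.93 and -6.06, none of them well above background.

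The fringe genes code for enzymes that extend the fucose on NOTCH receptors and so alter which ligands a receptor answers to. The 3 fringe genes differed in both directions: Lfng was 4.75-fold higher in LECs, whereas Mfng was 27.7-fold and Rfng 1.43-fold lower. Mfng measured 4.96, 5.0 and 5.01 in VECs and 0.04, 0.39 and 0.16 in LECs, a difference of -4.79 ± 0.10 (SE, adjusted p = 7.69e-07). Lfng measured -0.71, -0.89 and -0.46 in VECs and 1.47, 1.72 and 1.48 in LECs, a difference of 2.25 ± 0.13 (SE, adjusted p = 3.22e-05), and its second probe gave 2.03 ± 0.10 (SE, adjusted p = 1.77e-05). So 2 fringe genes with related enzymes lay on opposite sides. Each had no overlap between the cell types, as had 11229 of all 14971 tested genes.

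Rfng measured 3.16, 3.16 and 3.17 in VECs and 2.61, 2.65 and 2.69 in LECs, a small difference of -0.51 ± 0.06 (SE, adjusted p = 4.76e-04) that came with very close replicates. It did not pass without scaling between arrays (-0.29). A second Rfng probe was well above background only on 1 LEC array and was not tested. Pofut1, the enzyme that adds the fucose on which the fringe enzymes act, measured 3.22, 3.22 and 3.21 in VECs and 3.26, 3.22 and 3.29 in LECs. Its difference was 0.04 ± 0.06 (SE, 95% confidence interval -0.10 to 0.18, adjusted p = 0.551), which is under 1.2-fold at either end, and none of its 3 probes passed.

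Of the 6 target genes, 5 were lower in LECs and 1, Heyl, was higher, and all 6 differed by at least 2-fold. Among all tested genes 32.0% were called lower and 34.9% higher, and 25.1% were called with at least a 2-fold difference. Hes1, Hes5, Hey1, Hey2 and Heyl code for repressors with a basic helix-loop-helix domain, and Nrarp codes for a small ankyrin protein that dampens NOTCH signalling and is itself switched on by it.

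Hey2, a gene of arterial endothelium, measured -1.10, -0.96 and -1.26 in VECs and -4.52, -5.43 and -4.85 in LECs. It was well above background in all 3 VEC samples and in LEC 6 only, so the measured 14.2-fold difference stands as at least 9.28-fold lower in LECs (adjusted p = 3.70e-05). This bound holds for the processed intensities, and the Hey2 difference was -3.21 with dim signals raised to the background floor and only -1.65 (3.14-fold) under normexp, which adds a constant to every signal. Nrarp measured 1.35, 1.39 and 1.02 in VECs and -2.14, -2.52 and -2.33 in LECs, and was 12-fold lower, a difference of -3.58 ± 0.14 (SE, adjusted p = 6.57e-06) (-2.83 under normexp). For both genes more than 2 units separated the lowest VEC sample from the highest LEC sample.

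Hes1, the target with the broadest use among tissues, measured 3.74, 3.80 and 3.31 in VECs and 2.05, 1.81 and 1.99 in LECs, a difference of -1.66 ± 0.15 (SE, adjusted p = 1.81e-04). Hey1, a close relative of Hey2, measured 4.74, 4.68 and 4.73 in VECs and 3.47, 3.24 and 3.53 in LECs, a difference of -1.30 ± 0.09 (SE, adjusted p = 6.47e-05). Hes5 measured -0.36, -0.18 and -0.62 in VECs and -1.87, -2.63 and -2.0 in LECs, a difference of -1.78 ± 0.22 (SE, adjusted p = 8.05e-04). LEC 7 was the lowest LEC sample for each of these 3 genes, as for Hey2 and Nrarp. In none did the cell types overlap, as in 11229 of all 14971 tested genes. A second Hes5 probe was well above background in none of the 6 samples, so the Hes5 difference rests on 1 probe. The other targets had only 1 probe each, as had Notch2, the tested ligands, Mfng, Dtx1, Dtx4 and Aph1b.

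Heyl, the HEY member known from mural cells as well as endothelium, ran the other way and measured -4.35, -4.46 and -4.10 in VECs and -1.64, -1.91 and -1.93 in LECs. VEC 3 was not well above background, and LECs held 5.57 times the VEC level of Heyl, which as a bound is no lower than the measured fold, a difference of 2.48 ± 0.13 (SE, adjusted p = 1.83e-05). Under normexp the difference was 0.96, that is 1.94-fold, so its size depends on the background correction. The pericyte and smooth muscle markers given above stood higher in sum in LECs with Kcnj8 and lower without it, and their part in the Heyl difference was not tested.

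**Figure D2:**
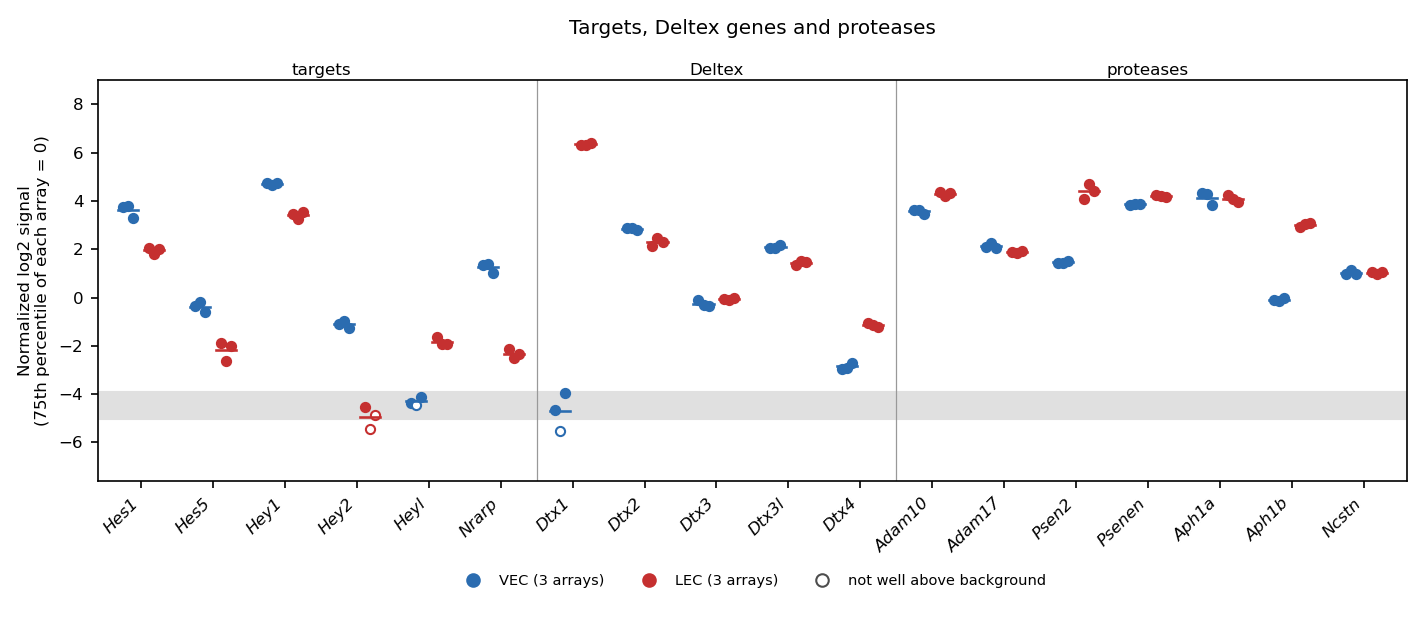
Normalized log2 signal of the target genes, Deltex genes and proteases (vertical axis, 75th percentile of each array at 0) for VEC samples (blue points, 3 arrays) and LEC samples (red points, 3 arrays), with a line at each group mean, open points for samples not well above background and a grey band from -5.03 to -3.92 for the lowest level well above background. Of the 6 targets only Heyl sits higher in LECs, while Dtx1, Psen2 and Aph1b stand apart upward in LECs.

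The promoters of the targets are shown because 5 of these 6 genes were lower in LECs and because RBPJ, the factor that carries the NOTCH signal to DNA, has a known core site, GTGGGAA. The search covered both strands (TTCCCAC on the other) from 250 bases before to 50 after each annotated start in RefSeq on GRCm38.p6, and no second motif was sought. Of the 40 members 32 had a promoter in the table, and Hes1, Hey1, Heyl, Mfng, Dtx3, Dtx4, Mib1 and Snw1 did not. The core stood in 6 of the 32 (18.8%), namely Lfng, Hes5, Hey2, Spen, Psen2 and Aph1a, counting a gene once whichever of its starts held it, and in 7.25% of the 27025 genes and 6.38% of the 32851 promoters of the table. Below are 260 bases each, ending 10 bases after the start, on the strand of the gene with the core in capitals: Hes5 at chr4:154960673-154960932 (plus strand), Hey2 at chr10:30842774-30843033 (minus strand), Nrarp at chr2:25180508-25180767 (plus strand) and, for contrast, Lfng at chr5:140607091-140607350 (plus strand).
Hes5: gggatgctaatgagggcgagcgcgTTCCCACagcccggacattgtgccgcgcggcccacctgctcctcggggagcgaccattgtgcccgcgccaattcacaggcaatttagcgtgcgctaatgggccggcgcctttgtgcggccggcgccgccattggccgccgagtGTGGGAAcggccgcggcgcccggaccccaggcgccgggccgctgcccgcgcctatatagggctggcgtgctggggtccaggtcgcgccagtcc
Hey2: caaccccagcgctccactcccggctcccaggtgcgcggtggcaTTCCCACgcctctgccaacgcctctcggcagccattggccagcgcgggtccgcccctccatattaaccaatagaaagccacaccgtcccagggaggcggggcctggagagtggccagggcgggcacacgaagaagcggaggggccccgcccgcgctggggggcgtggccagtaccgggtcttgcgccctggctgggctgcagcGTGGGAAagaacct
Nrarp: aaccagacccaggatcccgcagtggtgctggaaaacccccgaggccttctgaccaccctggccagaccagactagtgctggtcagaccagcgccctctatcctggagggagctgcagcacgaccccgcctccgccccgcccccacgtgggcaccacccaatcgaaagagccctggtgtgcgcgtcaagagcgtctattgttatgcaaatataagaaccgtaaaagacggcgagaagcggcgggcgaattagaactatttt
Lfng: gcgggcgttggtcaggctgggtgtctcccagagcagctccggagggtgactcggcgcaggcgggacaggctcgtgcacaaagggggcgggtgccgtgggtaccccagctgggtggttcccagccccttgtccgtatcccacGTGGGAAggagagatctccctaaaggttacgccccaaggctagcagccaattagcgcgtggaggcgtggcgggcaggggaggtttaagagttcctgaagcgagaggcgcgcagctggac

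Hes5 held the core at 2 places, from base -226 to -220 and from -83 to -77 before the start, in opposite orientations. Hey2 also held 2, from -207 to -201 and across the start itself from -4 to 3. Lfng, which was higher in LECs, held 1 core from -109 to -103. Nrarp, one of the targets with the widest difference, had no match, which says only that these letters are not in this window. The core was thus found beside genes that were lower in LECs and beside genes that were higher, Lfng and Psen2 among the latter.

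The Deltex genes code for ubiquitin ligases, of which DTX1 binds the intracellular part of NOTCH receptors. They held the widest difference of all the members. Dtx1 measured -4.66, -5.53 and -3.94 in VECs and 6.34, 6.33 and 6.40 in LECs, that is, processed intensities of 14.3, 7.2 and 24.5 against 34986, 30658 and 37188. VEC 3 was not well above background, so on the processed intensities the LEC level of Dtx1 was higher by at least 1709-fold, and the fitted difference was 11.07 ± 0.38 (SE, adjusted p = 3.79e-06). In order of size this was number 6 of the 14971 tested genes among those higher in LECs. The LEC samples agreed closely (SD 0.04), whereas the VEC samples, near background, spread more (SD 0.80), and the fitted difference ran from 8.58 (382-fold, under normexp) to 11.45 over the alternatives, so the bound does not hold under normexp. Dtx1 is also known from lymphocytes. The summed level of 7 T and innate lymphoid cell markers was 2.71 to 3.55 in VECs and 9.35 to 11.0 in LECs. Of them 3 were higher in LECs (Cd2 by 5.88, Lck by 1.54 and Cd3d by 1.15 on the log2 scale) and 1 was lower (Cd3e, -0.63). A further 1 did not pass and 2 were not tested, and Cd3g was well above background in none of the 6 samples. The largest terms of the sum in LECs were Cd2 and Lck (mean log2 levels 2.24 and 1.99). The sum of 5 B cell markers was 0.379 to 0.488 in VECs and 0.224 to 0.258 in LECs, with 3 of them lower in LECs and 2 not tested, and Ms4a1 was well above background in no sample. The part of either list in the Dtx1 difference was not tested.

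Dtx4, a relative of Dtx1, was 3.28-fold higher in LECs, with -2.94, -2.91 and -2.70 in VECs and -1.04, -1.15 and -1.23 in LECs, a difference of 1.71 ± 0.09 (SE, adjusted p = 2.34e-05), which was 1.04 under normexp. The other three Deltex genes differed by less. Dtx2 and Dtx3l were lower in LECs, with log2 differences of -0.55 ± 0.10 (SE) and -0.66 ± 0.08, and Dtx3 did not pass (difference 0.20 ± 0.08, adjusted p = 0.0802).

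In the nuclear complex the differences were small. Rbpj, the DNA-binding partner of every NOTCH receptor, measured 1.11, 1.07 and 0.99 in VECs and 1.17, 1.09 and 1.21 in LECs. The groups overlapped, and the difference of 0.11 ± 0.07 had a 95% confidence interval of -0.06 to 0.27 (adjusted p = 0.217). The 3 Mastermind genes, whose products are the coactivators of the complex, were all lower in LECs, where 32.0% of all tested genes were called lower. Their differences were -0.44 for Maml1, -0.32 for Maml2 and -1.29 for Maml3 on the log2 scale.

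Maml3 was the member of the complex with the widest difference, measuring -0.37, -1.07 and -1.17 in VECs and -2.23, -2.10 and -2.15 in LECs, with -1.29 ± 0.21 (SE, adjusted p = 0.00264). VEC 2 stood above the other two VEC samples, and the second Maml3 probe gave -1.30 with closer replicates. Spen, a corepressor that binds RBPJ, was lower in LECs (-0.25, adjusted p = 0.0265), and Snw1, a nuclear cofactor that also works in splicing, was higher by 0.36 (adjusted p = 0.00218). Without scaling between arrays, Maml1, Maml2 and Spen no longer passed, and Maml2 was also lost with the slide row as a block and within row 1 (-0.23 in both).

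Receptor activation needs 2 cuts, the first by an ADAM protease and the second by gamma-secretase, a complex built of a presenilin, an APH1 protein, nicastrin (Ncstn) and PEN-2 (Psenen). Of the 7 protease genes 4 were higher in LECs, 1 was lower and 2 did not pass, so 71.4% were called, a share near the 66.9% of all genes. Among all tested genes 34.9% were called higher and 32.0% lower. Psen2, a catalytic presenilin, and Aph1b, a scaffold subunit, stood out with 7.72-fold and 8.66-fold higher levels in LECs.

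Psen2 measured 1.44, 1.45 and 1.50 in VECs and 4.10, 4.73 and 4.42 in LECs, a difference of 2.95 ± 0.16 (SE, adjusted p = 2.16e-05), and its second probe gave 2.85 ± 0.16 (SE, adjusted p = 2.69e-05). Aph1b measured -0.12, -0.15 and -0.02 in VECs and 2.92, 3.05 and 3.09 in LECs, a difference of 3.11 ± 0.07 (SE, adjusted p = 1.08e-06). Both genes were separated between the cell types by more than 2 units. Aph1b has a near-identical neighbour in the mouse, Aph1c, which was also higher in LECs (-1.75, -1.73 and -1.96 in VECs and 0.84, 1.13 and 0.95 in LECs). Whether the probe of one also binds RNA of the other was not tested, so the levels of the pair are uncertain as separate genes.

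The obligatory subunits differed little. Ncstn measured 0.96, 1.13 and 0.97 in VECs and 1.05, 0.97 and 1.06 in LECs, overlapping, with a 95% confidence interval of the difference of -0.17 to 0.19. Psenen was higher in LECs by 0.35 and Adam10, the main protease of the first cut, by 0.73 (adjusted p = 3.47e-04), whereas Adam17 was lower (-0.26) and did not pass in 9 of 22 alternatives. Aph1a was the only one of 15 members with several tested probes whose probes gave different calls. Its brightest probe measured 4.32, 4.28 and 3.82 in VECs and 4.23, 4.10 and 3.97 in LECs and did not pass (-0.04 ± 0.15, adjusted p = 0.843), a further pair of probes did not pass either, and the last gave -1.01, -0.94 and -0.92 in VECs and -1.47, -1.52 and -1.53 in LECs, a difference of -0.55 ± 0.06 (SE, adjusted p = 4.54e-04).

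The genes of receptor and ligand traffic also differed little. Numbl, a relative of the NOTCH antagonist Numb, was higher in LECs by 0.43 (adjusted p = 0.00595), and Mib1, the ubiquitin ligase that lets ligands be pulled into the sending cell, was lower (-0.29, adjusted p = 0.0158). Mib1 lost its call in 7 of 22 alternatives, with the slide row as a block and within row 1 (-0.20 in both) and without VEC 3 among them, and Numbl lost it within row 1. Numb itself did not pass (0.11 ± 0.07, adjusted p = 0.254). None of the 3 reached a 2-fold difference.

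**Figure D3:**
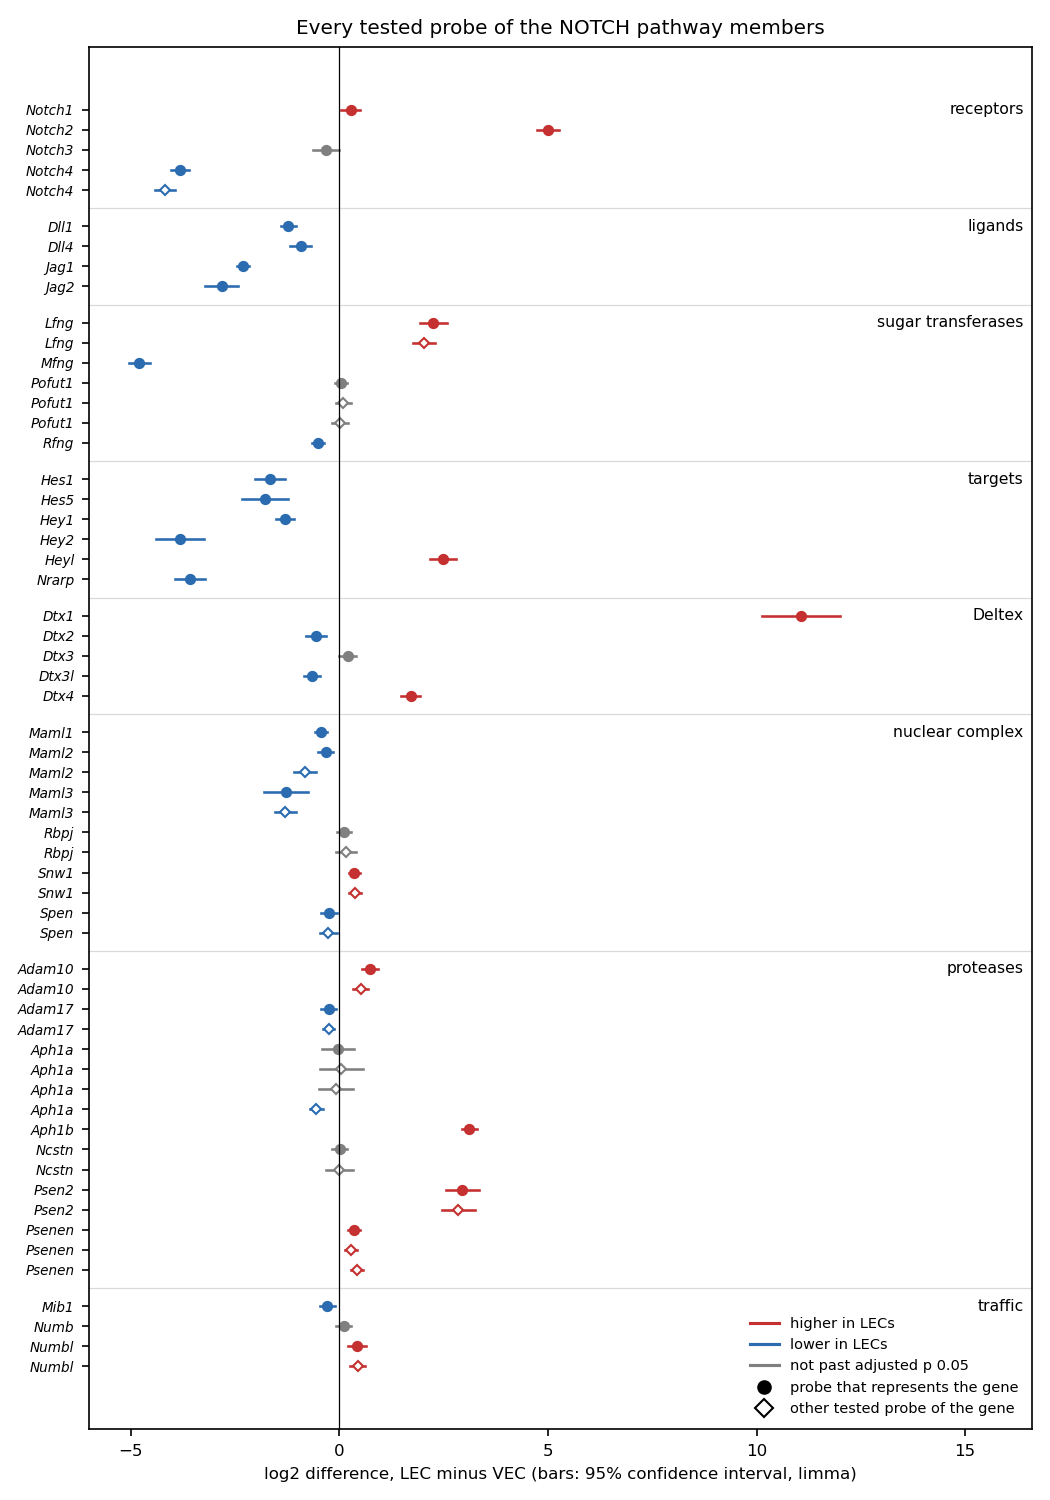
Difference of every tested probe of the 39 tested members (horizontal axis, log2, LEC minus VEC), with bars for the 95% confidence interval of the limma fit, red for higher and blue for lower in LECs and grey for not past the threshold; filled circles are the probes that represent the genes. Wide differences lie among receptors, ligands, fringe genes, targets, Dtx1, Psen2 and Aph1b, and most of the nuclear complex lies within 1 unit of 0.

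The rest of the pathway was set beside the members through 54 further genes, of which 49 were tested. Of these 9 were higher and 24 lower in LECs and 16 did not pass, where 34.9% of all tested genes were called higher and 32.0% lower. In either direction 67.3% were called against 66.9% of all genes. The pooled share was thus near the background, while more of these genes were called lower than higher. At least a 2-fold called difference was found for 32.7%, 4 higher and 12 lower. The share over all genes was 25.1%, with 12.0% higher and 13.1% lower. The 5 highest in LECs were Tspan33 (3.44), Aph1c (2.79), Tle1 (1.32), Tspan14 (1.20) and Poglut1 (0.47). Tspan33 and Tspan14 code for tetraspanins that escort ADAM10, Tle1 codes for a Groucho corepressor used by HES proteins, and Poglut1 adds glucose to NOTCH receptors.

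Tspan33 measured -3.26, -3.48 and -2.57 in VECs and 0.56, 0.21 and 0.25 in LECs and was 10.9-fold higher in LECs (adjusted p = 7.22e-05). Other tetraspanins of the same ADAM10 group, Tspan5, Tspan15 and Tspan17, were lower in LECs and were looked up after their values were seen (-1.13, -1.48 and -0.91). Thus the ADAM10 escorts read here divided, 2 higher and 3 lower, where 34.9% of all tested genes were called higher and 32.0% lower. Adam10 itself differed by 1.66-fold.

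The 5 lowest were Tle6 (-3.86), Eogt (-3.66), Neurl1b (-3.06), Neurl2 (-2.55) and Lnx1 (-2.41). Eogt, which adds a sugar to the same domains as the fucose and supports Delta-like signalling in vessels, measured 3.01, 3.02 and 3.05 in VECs and -0.62, -0.66 and -0.62 in LECs, 12.6-fold lower in LECs (adjusted p = 4.88e-07). Neurl1b, a ubiquitin ligase of the Neuralized family that acts on ligands, measured 3.88, 3.85 and 3.99 in VECs and 0.77, 1.0 and 0.77 in LECs (adjusted p = 2.10e-06), but its second, dim probe did not pass (-0.68 ± 1.14, adjusted p = 0.627). Lnx1, a ubiquitin ligase for Numb, was well above background in 1 LEC sample and was at least 4.55-fold lower in LECs on 1 probe (adjusted p = 0.00115). The other Lnx1 probe ran the opposite way, with -5.54, -5.45 and -4.67 in VECs and -3.37, -3.98 and -4.26 in LECs, and was not tested, being well above background in 1 VEC and 2 LEC samples, so the direction of Lnx1 is unsettled. Of the 7 genes of ligand endocytosis 5 were lower in LECs, none was higher and 2 did not pass. So 71.4% were called against 66.9% of all genes, of which 34.9% were called higher and 32.0% lower.

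Since NOTCH is known for arterial identity, 10 genes of arteries and 6 of veins and lymphatics were read in the same fit. All 16 passed, where 66.9% of all genes were called, 34.9% as higher and 32.0% as lower. Of the arterial genes 8 were lower and 2 higher in LECs, and of the venous and lymphatic genes 5 were higher and 1, Ackr1, was lower; Nrp1, Sox17, Prox1 and Flt4 are also in the marker lists above. The 5 lowest were Cxcr4 (at least 36.5-fold, well above background in 1 LEC sample), Nrp1 (39.8-fold), Sox17 (31.6-fold), Ackr1 (24.4-fold) and Sema3g (14.8-fold). Ackr1 marks postcapillary venules, so the lower group held a venous gene beside 4 arterial ones. The 5 highest in LECs were Prox1 (41.3-fold), Nr2f2 (12.5-fold), Flt4 (11.8-fold), Nrp2 (3.34-fold) and Bmx (1.94-fold). One of the 3 Nrp2 probes did not pass (-0.03 ± 0.07, adjusted p = 0.76). Nr2f2 codes for the venous factor COUP-TFII, which is known to hold down NOTCH signalling in veins, and it measured 0.68, 0.60 and 0.88 in VECs and 4.28, 4.46 and 4.36 in LECs.

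**Figure D4:**
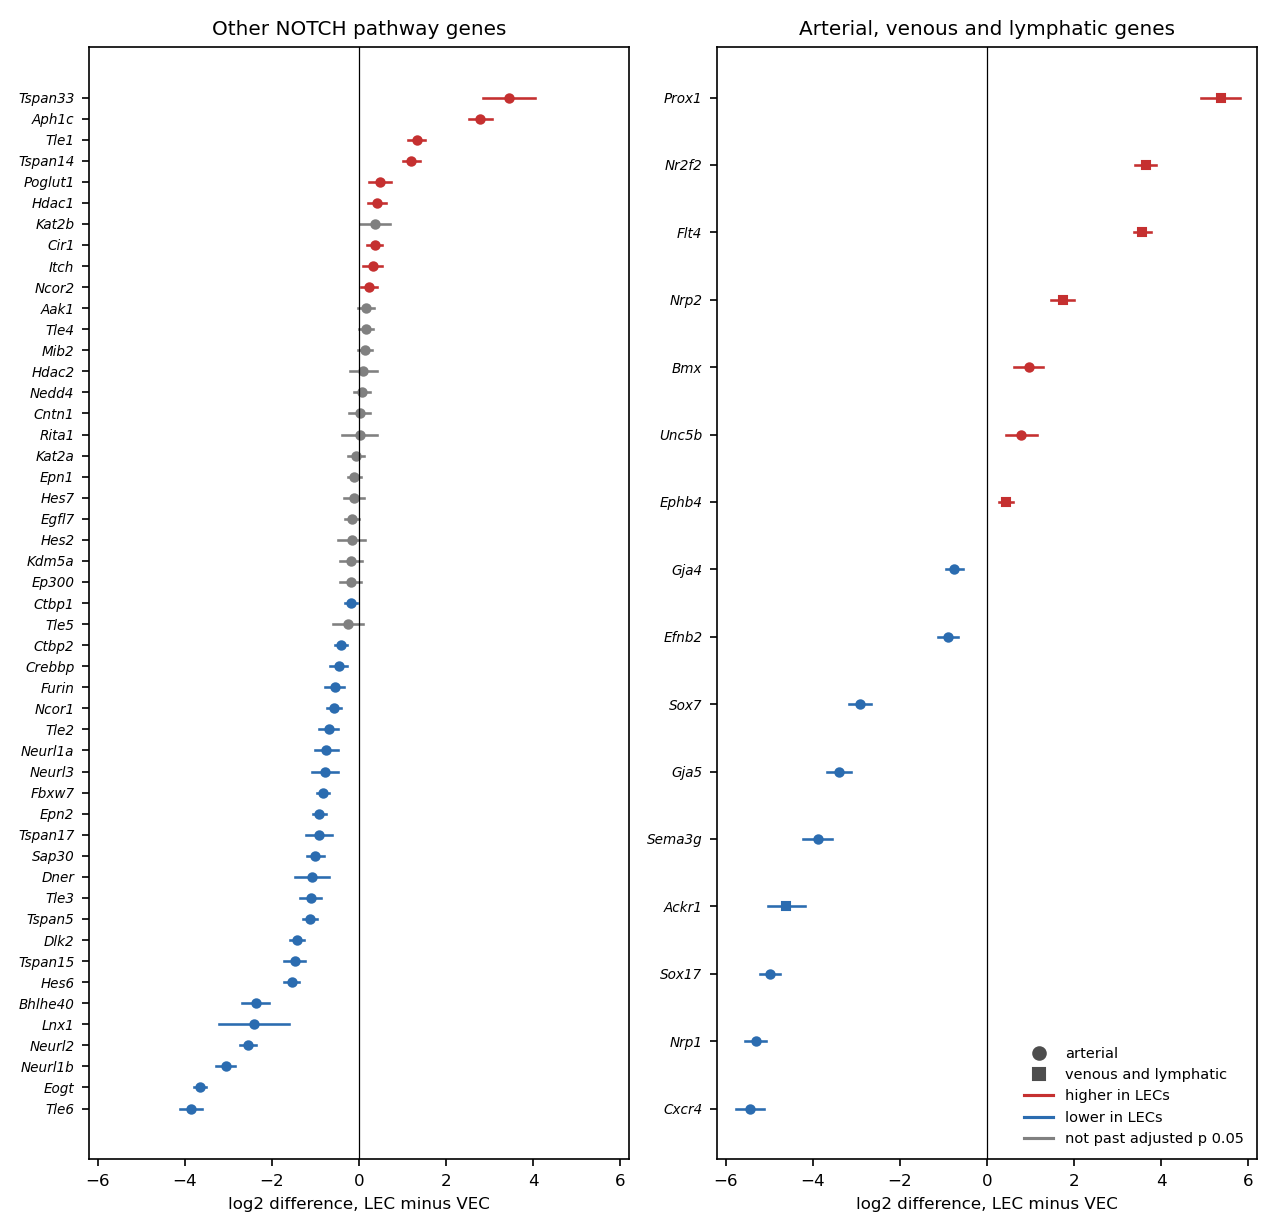
Difference of the tested other NOTCH pathway genes (left) and of the arterial (circles), venous and lymphatic (squares) genes (right), on the horizontal axis as log2, LEC minus VEC, with bars for the 95% confidence interval, red for higher and blue for lower in LECs and grey for not past the threshold. On the left 9 genes are higher and 24 lower, and on the right 8 of 10 arterial genes are lower while 5 of 6 venous and lymphatic genes are higher. Among all tested genes 34.9% were called higher and 32.0% lower.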

How the data were processed

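The authors labelled RNA of each sorted sample with Cy3, hybridised it to an Agilent SurePrint G3 mouse array and read it with Agilent Feature Extraction 12.0.3.1, per the file headers. The deposited scanner files give a processed intensity per spot, background-corrected on a linear scale. The deposited log2 value table equalled log2 of that intensity minus 1 constant per array (within 0.01 log2 units), with column medians from -3.19 to -3.13, and served as an alternative.

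Spots flagged as outliers (97 to 122 per array) were set aside, replicate spots were averaged per probe, and log2 values were taken relative to the 75th percentile of their array (intensity 333 to 441). A probe entered the test if every array of LECs, or every array of VECs, had it well above background (33776 probes, 14971 genes). The fit used limma 3.58.1 in R 4.3.3, two-sided, LEC (3 samples) against VEC (3 samples), with Benjamini-Hochberg adjustment at 0.05. Each gene stands on the brightest of its tested probes. Where the dimmer group was not well above background on all of its arrays, a lower bound of the fold is given, with each dim array raised to its lowest level well above background. Accessions were matched to symbols through RefSeq (GRCm38.p6), which named 32994 of 56605 probes. The script was tested on simulated data. The number of arrays limits the precision.

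Values on every array are given for members with a called difference of at least 2-fold or a lower bound, for all tested receptors, ligands, fringe and target genes, and for members whose probes disagreed; of the other pathway and the arteriovenous lists, up to 5 genes in each direction are named. Beyond this rule Tspan5, Tspan15 and Tspan17 are named, which were looked up after their values were seen. Members and lists were chosen with earlier results of these data known. Alternatives were normexp background correction, 3 other scalings, the log2 table, 2 other filters, a floor, kept outlier spots, a variance trend, the methods' one-way test, averaged probes, slide row, 2 stricter thresholds and leaving out each array.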

Additional observations from a re-analysis of the deposited data

How the results depend on the processing

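Over 39 tested members and 22 alternatives, none of the 855 log2 differences changed direction where it was called: 796 kept their call, 50 lost it and 9 gained it. All 18 members with a called difference of at least 2-fold kept their call wherever they were tested, and Hey2, Heyl and Dtx1 were not tested where probes had to be well above background on all 6 arrays. The alternative that asks for at least a 2-fold difference could not change these 18, which were chosen by that cut. By its rule it removes every smaller called difference, and these removals are among the 50 lost calls. Asking for at least a 2-fold difference left 7 members higher and 11 lower (from 12 and 20), and 4 other pathway genes higher and 12 lower (from 9 and 24). Leaving out 1 array at a time gave 11 to 13 members higher and 18 to 20 lower, and 7 to 10 other pathway genes higher and 23 to 25 lower. Without scaling between arrays the median of all genes was 0.24 on the log2 scale (0.02 with it), 67.4% of called genes were higher in LECs (52.2% with it), and 14 members were higher and 14 lower: Rfng, Maml1, Maml2, Spen, Adam17 and Mib1 lost their call, and Dtx3 and Numb gained one. With no filter on dim probes that median was 0.13. The difference moved by over 1.5 times in fold for Notch2, Hey2, Heyl, Nrarp, Dtx1 and Dtx4 under normexp (4.01, -1.65, 0.96, -2.83, 8.58 and 1.04), and for Hey2 with dim signals raised to the floor (-3.21); no other member moved as far under any alternative. The signal over background limits Hey2, Heyl and Dtx1 to lower bounds and gives no test of Dll3. No paired analysis was possible because the groups share no replicate numbers.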
